A study of Homo sapiens with 6 samples.

Results

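The cytosolic ribosomal protein (RP) genes encode the proteins of the ribosomes that translate most messages of the cell. They were taken by name alone, as the protein-coding genes of the deposited table called RPL, RPLP, RPS or RPSA, and the RPS6K kinases were left out. This gave 84 of 58735 genes, 52 for the large subunit (RPL) and 32 for the small subunit (RPS). RNA was measured by polyA RNA-sequencing of MDA-MB-231, a human line from a basal-like breast adenocarcinoma. The 6 libraries came from cells with a non-targeting shRNA (shSCR), which the labels call SCR and give as WT. At 0 Gy there were 3 libraries, and the other 3 received 10 Gy from a Cs gamma source and were harvested 24 h later, so the comparison asks how these genes stood a day after the dose. Libraries are named here by dose and number. Whether libraries of the same dose came from separate cultures is not given in the sources used here, so the p-values measure only the spread between these libraries. No values of cells with less MAFF were analyzed here.

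A ribosome joins a small subunit, which reads the message, to a large subunit, which forms the peptide bonds, and each RP is normally needed in the same number as its partners. RP messages are among the most abundant in dividing cells. They typically begin with a C followed by a run of pyrimidines, the 5′ terminal oligopyrimidine (TOP) tract, through which mTOR and LARP1 control their translation and stability. Some RPs also act outside the ribosome, and RPL5 and RPL11 bind MDM2 when ribosome assembly is disturbed.

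Levels are given in FPKM, the deposited unit of fragments per kilobase of gene, scaled to library depth. Recovered reads per library ranged from 15643641 to 28861781. The line's own markers VIM, CD44, CAV1, AXL, MSN and EGFR had means at 0 Gy between 29.8 and 301 FPKM. Of 6 markers expected low or absent, ESR1 was at 0.00872, FOXA1 at 0.0241 and CDH1 at 0.324 FPKM, and PGR was listed at 0. ERBB2 and GATA3 of the same list were higher, at 7.08 and 3.05 FPKM. Of markers of other cells, CD3E was listed at 0, and PTPRC, ALB and LYZ stayed at or below 0.155 FPKM in every library. COL1A1 and PECAM1 were at 3.03 and 1.22 FPKM at 0 Gy and were called higher at 10 Gy. Of the line's own 6 markers 5 were called lower, where 23.7% of all genes were, and AXL fell the most, by 0.49 on the log2 scale. With the sum of every library set equal (TPM), 3 of the 6 were called lower, against 8.83% of all genes. The part of these genes' sources in the RP values was not tested.

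The first bases of RP messages carry the shared feature of the family, so the stretch from 30 bases before to 20 bases after the annotated start is printed for abundant members, for RPL38 as one of the largest falls and for paralog pairs (RefSeq, GRCh38.p14, sense strand, 5′ to 3′). Capitals mark an uninterrupted run of at least 5 pyrimidines that begins with C at the first transcribed base. A sequence without capitals has no such run there.
RPL41, chr12:56116603-56116652, plus strand: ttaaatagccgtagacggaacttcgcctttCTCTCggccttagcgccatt
RPS12, chr6:132814539-132814588, plus strand: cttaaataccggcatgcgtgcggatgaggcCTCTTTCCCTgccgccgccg
RPL38, chr17:74203648-74203697, plus strand: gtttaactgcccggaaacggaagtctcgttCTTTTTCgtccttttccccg
RPS27, chr1:153990732-153990781, plus strand: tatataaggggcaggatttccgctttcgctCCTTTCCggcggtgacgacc
RPS27L, chr15:63157458-63157507, minus strand: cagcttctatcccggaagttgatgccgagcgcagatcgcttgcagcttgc
RPL26, chr17:8383174-8383223, minus strand: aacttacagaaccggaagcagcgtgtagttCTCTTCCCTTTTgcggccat
RPL26L1, chr5:172958699-172958748, plus strand: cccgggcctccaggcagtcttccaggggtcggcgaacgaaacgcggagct
RPL22, chr1:6199576-6199625, minus strand: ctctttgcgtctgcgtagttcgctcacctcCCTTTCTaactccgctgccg
RPL22L1, chr3:170870176-170870225, minus strand: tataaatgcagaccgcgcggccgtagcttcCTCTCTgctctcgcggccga

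A tract at the first base was annotated for 47 of the 67 RP genes with a window (70.1%), against 7.67% of 8451 expressed protein-coding genes with a window. A tract starting within 10 bases of the start was found in 58 of the 67 (86.6%) and in 42.2% of the 8451. At the first base it was found in 29 of 42 large subunit and 18 of 25 small subunit genes. The paralogs RPS27L and RPL26L1 had no tract at their start, whereas their parents RPS27 and RPL26 did, and RPL22L1 and RPL22 both had it. Genes with and without the tract at the first base had like changes after irradiation, which were not tested against each other. The median log2 change was -0.18 for 47 tested genes with it there, -0.19 for 19 without it there and -0.18 for 16 without a window. The 19 include genes with a tract that starts within 10 bases, so they are not a group without TOP tracts. Among fixed motifs searched on both strands from 250 bases before to 50 after the start, CCGGAAG, the core of ETS and GABP sites, was present in 33.7% of RP windows and 18.2% of windows of expressed protein-coding genes. The YY1 motif AAGATGG was in 10.8% and 7.44%, the GC box GGGCGG in 54.2% and 68.0%, and the TATA box TATAAA in 8.43% and 5.62%. In all 35116 windows the shares were 10.3% for CCGGAAG, 5.84% for AAGATGG, 45.0% for GGGCGG and 11.5% for TATAAA. These are matches of letters in annotated windows and not sites of binding.

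At 0 Gy, 82 of the 84 genes had at least 1 FPKM. Their mean levels ran from 1.14 FPKM for RPS10 to 1047 FPKM for RPL41, with a median of 154 FPKM over 50 large subunit genes and 210 FPKM over 32 small subunit genes. The highest was RPL41, the smallest protein of the large subunit (chr12:56116586-56117943), at 1129, 1009 and 1004 FPKM in 0 Gy libraries 1 to 3. It was followed in the large subunit by RPL13A, RPL7A, RPL8 and RPL35, with means of 667, 616, 606 and 582 FPKM. In the small subunit RPS2 (776 FPKM), RPS12 (724 FPKM), RPS18 (583 FPKM) and RPS27 (496 FPKM) were among the highest. RPL3L, the copy of RPL3 known from muscle, had 3, 0 and 2 reads at 0 Gy and 0, 3 and 1 at 10 Gy. RPL10L, the copy of RPL10 known from the testis, was listed at 0 in all 6 libraries. Neither entered the test, and 82 genes did.

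The order of these levels depended on the length each was divided by. The deposited length was the union of all annotated exons of a gene, for 58735 of 58735 genes. It was longer than a reference mRNA by a median factor of 3.25 over the 82 genes. That mRNA was the shortest annotated coding transcript among those marked as principal and best supported. Where a gene had none marked so, its other coding transcripts of the basic annotation were used. RPS29, a zinc-binding protein of the small subunit, had a union of 9845 bases and an mRNA of 296 bases. It stood at place 71 of the 84 genes in FPKM (42.7 FPKM) and at place 11 when the same reads were divided by the mRNA length (1420 on that scale). RPS24 moved in the same way from place 62 to 17, RPL15 from 44 to 9 and RPS3 from 33 to 8, while RPL41 was first on both scales. Across the 82 genes the scales correlated at a Spearman rho of 0.78, a description of genes that share the same reads. Some annotated mRNAs are themselves long, such as that of RPL37 at 7686 bases, so the second scale has its own limits. The ratio of doses within a gene does not use its length, but the 1 FPKM added before taking logs weighs more on genes whose length makes their FPKM low.

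**Figure D1:**
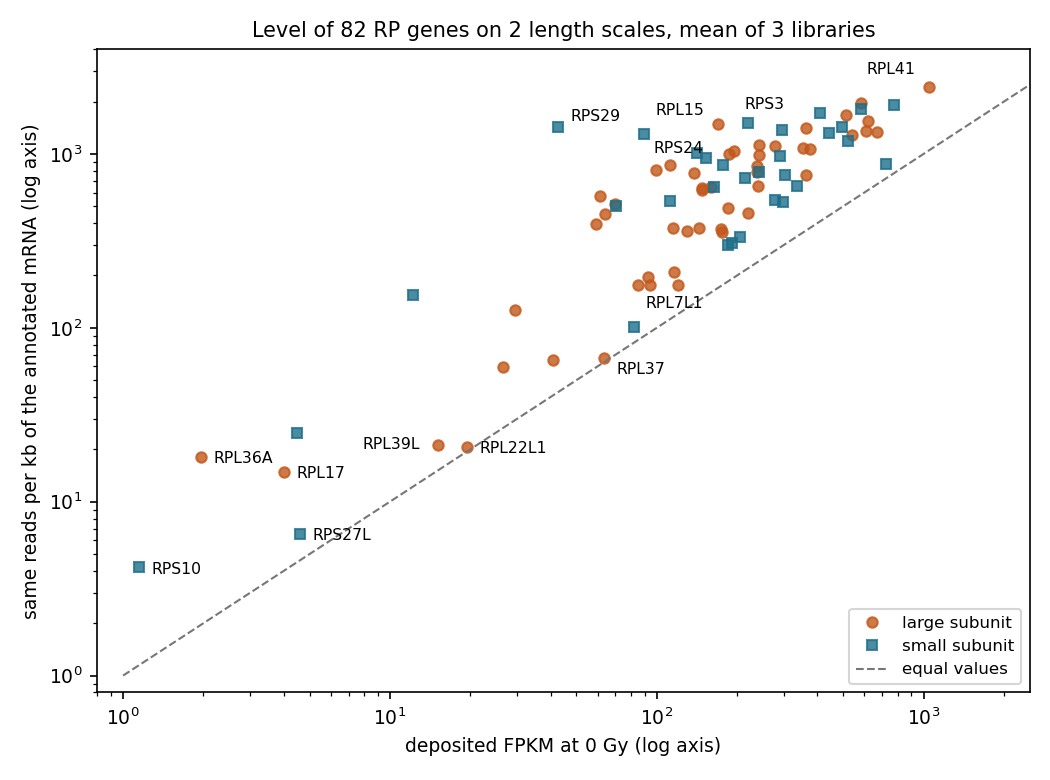
Mean level at 0 Gy of 82 RP genes, as deposited FPKM (x, log axis) and as the same reads per kb of the reference mRNA (y, log axis), with large subunit genes as circles and small subunit genes as squares. RPS29 lies far above the line of equal values, at 42.7 on x and 1420 on y, and RPL41 is highest on both axes.

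Some of the lowest RP genes overlapped other annotated genes. Exons of RPL17-C18orf32 covered 91.0% of the RPL17 mRNA on the same strand, RPL36A-HNRNPH2 covered 77.6% of RPL36A, and RPS10-NUDT3 77.0% of RPS10. These members had means at 0 Gy of 4.02, 1.96 and 1.14 FPKM, respectively, against a median of 176 FPKM over the 82 genes. The overlapping genes were listed at or below 0.0717 FPKM in every library, and the part of the overlap in the low levels was not tested. RP genes also have many pseudogenes, often processed copies with nearly the same sequence. By name, 1144 pseudogenes of any kind belonged to 77 members here. Reads on them amounted to 3.10% of the members' own reads at 0 Gy and 3.16% at 10 Gy. RPL9 was the clearest case, with 17414 reads on the gene and 20669 on its pseudogenes over the 3 libraries at 0 Gy. The values of RPL9 and of the overlapped genes are therefore uncertain.

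The RP genes as a family were lower 24 h after 10 Gy. The FPKM of all 84 genes summed to 20484, 18252 and 18329 in the 0 Gy libraries and to 16464, 16450 and 17039 in the 10 Gy libraries. All 10 Gy libraries lay below all 0 Gy libraries, and the mean fell by 12.5%, from 19021 ± 1267 to 16651 ± 336 (SD, n = 3 each). The large subunit genes fell by 12.2% in sum and the small subunit genes by 12.9%. The ratio of large to small subunit FPKM was 1.34, 1.38 and 1.35 at 0 Gy and 1.38, 1.37 and 1.36 at 10 Gy. These ranges overlapped, with a log2 change of 0.011. The overlap rests on library 2 at 0 Gy, without which the doses did not overlap and the log2 change was 0.023. As a share of all recovered reads, RP genes took 5.48%, 4.96% and 5.01% at 0 Gy and 4.75%, 4.74% and 4.85% at 10 Gy. As a share of all FPKM they took 7.36%, 6.74% and 6.80% at 0 Gy and 6.65%, 6.66% and 6.68% at 10 Gy, again without overlap. Library 1 at 0 Gy stood apart, with the highest value of its group for 77 of the 82 genes. Without it, the log2 change of the sum was -0.14 in place of -0.19 as deposited. As a share of all FPKM, libraries 2 and 3 at 0 Gy, at 6.74% and 6.80%, stood only slightly above the 10 Gy libraries at 6.65% to 6.68%. Much of the fall in that share therefore rests on library 1 at 0 Gy. The median coefficient of variation was 6.52% at 0 Gy and 2.24% at 10 Gy. In bulk RNA, fewer cells with high RP levels and less RP RNA in each cell cannot be told apart.

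**Figure D2:**
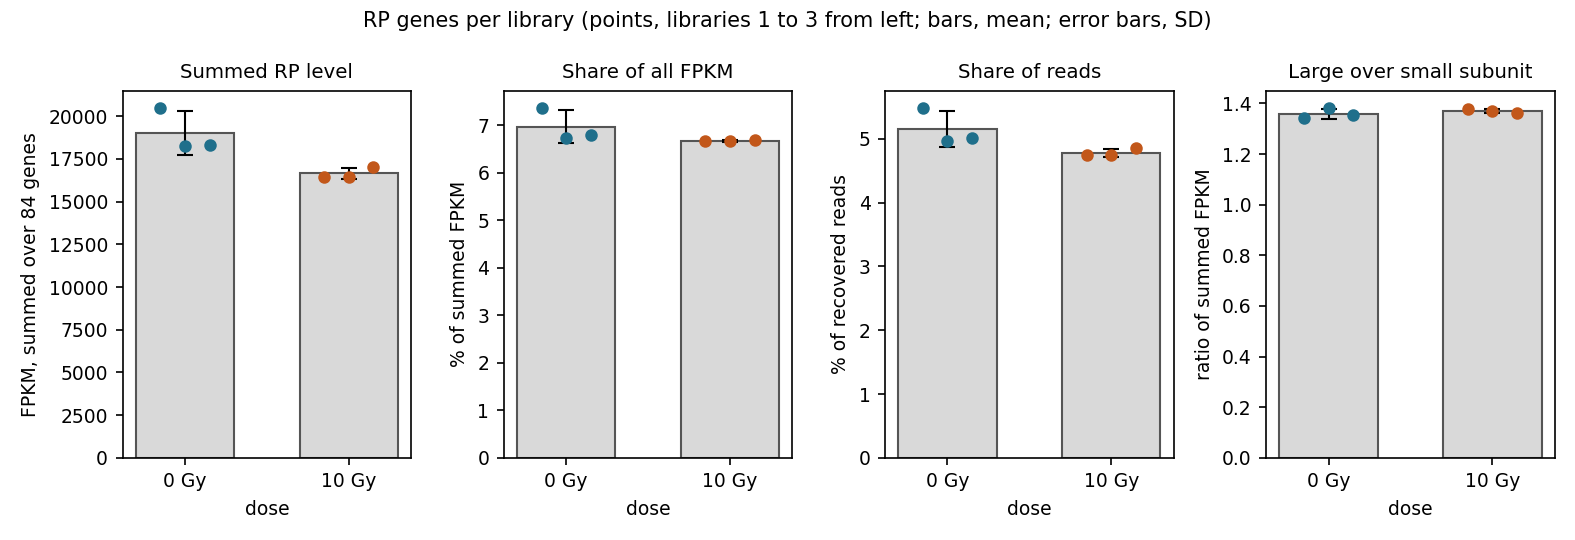
Summed FPKM of 84 RP genes, their share of all FPKM and of recovered reads, and the ratio of large to small subunit FPKM, at 0 Gy and 10 Gy (points, libraries 1 to 3 from left; bars, mean; error bars, SD, n = 3). In the first 3 panels every 10 Gy library lies below every 0 Gy library, with 0 Gy library 1 highest, and in the ratio panel the doses overlap.

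Gene by gene, limma on log2(FPKM + 1) with Benjamini-Hochberg adjustment over 12128 genes called 56 of 82 RP genes lower at 10 Gy and 0 higher (0 at an unadjusted p under 0.05). Among all genes tested, 35.6% were called, 23.7% lower and 11.9% higher. The calls were 37 of 50 large subunit genes and 19 of 32 small subunit genes. Without library 1 at 10 Gy they were 13 and 4, without library 2 at 10 Gy 13 and 3, and without library 3 at 10 Gy 27 and 9. Over all 12128 genes the lower calls were then 1830, 1808 and 2180. Without library 1 or 2 at 10 Gy the small subunit's share of lower calls was therefore below that of all genes. The median log2 change was -0.19 for the large subunit and -0.18 for the small subunit, against -0.039 over all genes tested. Of the 82 genes 81 had a negative change, and in 72 all 10 Gy libraries lay below all 0 Gy libraries, as in 32.8% of all genes. The changes were small and alike, since the quartiles of the 82 genes lay at -0.21 and -0.14. A single member, RPL17, was called at 1.3-fold or more, where 2.95% of all genes were called lower and 2.82% higher at that size. This count was 3 without library 2 at 0 Gy, 0 without library 3 at 0 Gy and 2 without library 3 at 10 Gy, and it was 2 with 0.1 added in place of 1 FPKM. Other abundant genes were lower too. The 799 nuclear genes outside the family with at least 50 FPKM had a median log2 change of -0.13, and 397 of them were called lower and 55 higher. In TPM, which sets the sum of every library equal and left 795 such genes, 186 were called lower and 181 higher, with a median of -0.0066.

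**Figure D3:**
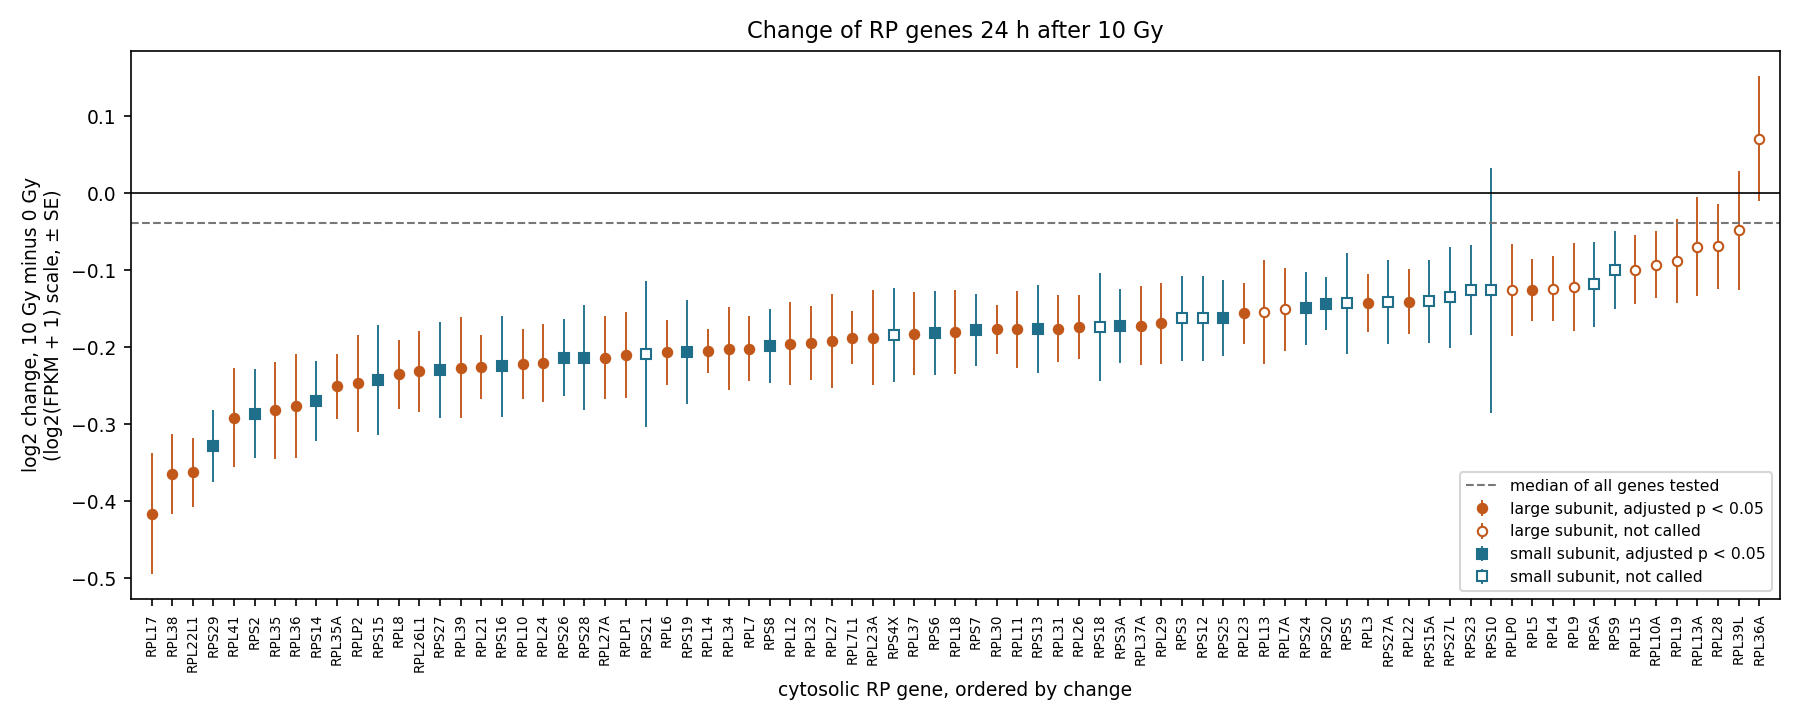
Log2 change from 0 Gy to 10 Gy (y, with SE) of 79 of the 82 RP genes tested, ordered by change (x), with large subunit genes as circles and small subunit genes as squares, filled where limma's adjusted p was under 0.05. All genes drawn but RPL36A lie below 0, from RPL17 at -0.42 to RPL39L at -0.048, and the subunits are mixed along the order.

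The size of the fall depended on how libraries were scaled. The deposited values hold a factor for each library, the depth they imply over the recovered reads, which was 0.973 to 0.991 at 0 Gy and 1.03 to 1.04 at 10 Gy. The sum over all genes fell from a mean of 272981 FPKM to 249745 FPKM. With that factor removed, 18 large and 4 small subunit genes were called lower (13.6% of all genes), with median log2 changes of -0.11 and -0.10 (chosen after the data were seen). On the TPM scale 8 large and 3 small subunit genes were called lower (8.83% of all genes), with medians of -0.058 and -0.053. On neither of these scales was a member called at 1.3-fold or more. This scale moved the median of all genes from -0.039 to 0.068, so that calls of all genes turned from 1443 higher and 2874 lower to 3127 higher and 1071 lower. Relative to the median of all genes, the large subunit stood at -0.15 as deposited and -0.13 in TPM, and the small subunit at -0.14 and -0.12. Under none of the 6 other scalings was an RP gene called higher. Of the 82 genes, 10 were called lower under all 6 and 32 under none. The 10 were RPL17, RPL38, RPL22L1, RPS29, RPL41, RPS2, RPS14, RPL35A, RPL8 and RPL21.

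**Figure D4:**
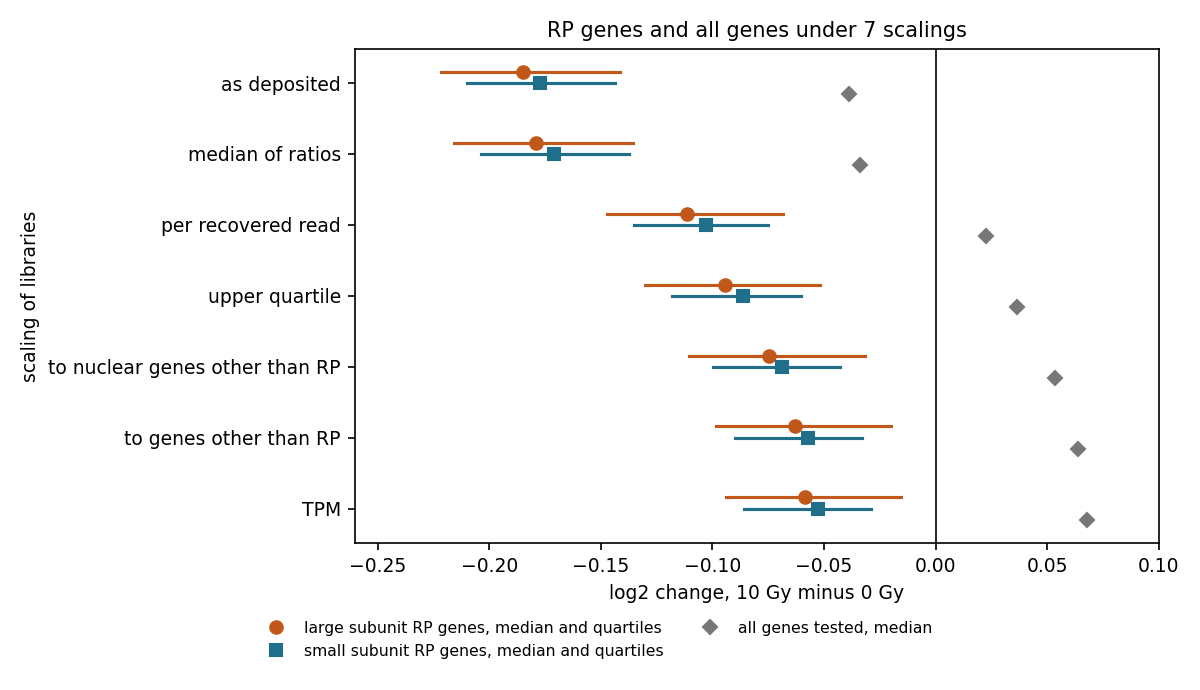
Median log2 change from 0 Gy to 10 Gy (x) of large subunit genes (circles) and small subunit genes (squares), with lines from the lower to the upper quartile, and of all genes tested (diamonds), under 7 scalings of the libraries (y). The RP medians move from -0.19 and -0.18 as deposited to -0.058 and -0.053 in TPM, and the median of all genes moves with them from -0.039 to 0.068.

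The genes with the largest falls came from both subunits. RPL17, which lies near the exit of the peptide tunnel (chr18:49488453-49492523), was at 3.92, 3.83 and 4.31 FPKM at 0 Gy and 3.16, 2.69 and 2.45 FPKM at 10 Gy. Its log2 change was -0.42 (SE 0.078, adjusted p = 0.0072 from limma), but it rests on 581 reads at 0 Gy and on the overlap given above. RPL38, known for its role in translating Hox messages in the embryo (chr17:74203582-74210655), was at 123, 110 and 114 FPKM and at 86.7, 87.2 and 94.1 FPKM. Every 10 Gy library was below every 0 Gy library, a log2 change of -0.36 (SE 0.052, adjusted p = 0.0027 from limma). RPL22L1, the paralog of RPL22 (chr3:170864875-170870483), was at 20.1, 18.7 and 19.8 FPKM and at 15.04, 14.2 and 15.6 FPKM. Its groups did not overlap either, and it fell by 0.36 on the log2 scale (SE 0.045). RPS29 (chr14:49570984-49599164) went from 44.5, 40.5 and 43.0 FPKM to 32.9, 33.0 and 35.5 FPKM, a log2 change of -0.33 (SE 0.046). RPL41, the most abundant member, went from the levels given above to 827, 841 and 896 FPKM, a log2 change of -0.29 (SE 0.064, adjusted p = 0.012 from limma). The sole member with a positive change, RPL36A, was at 1.89, 1.90 and 2.08 FPKM at 0 Gy and 2.42, 2.11 and 1.82 FPKM at 10 Gy. These ranges overlapped (log2 change 0.071, SE 0.082, adjusted p = 0.53 from limma). Among the falls, RPS2, RPL35, RPL36 and RPS14 came next, with log2 changes between -0.29 and -0.27.

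The most abundant genes did not all fall to the same extent. RPS2, at the entry of the message into the small subunit (chr16:1962052-1964860), was at 836, 738 and 752 FPKM at 0 Gy and 646, 623 and 635 FPKM at 10 Gy, a log2 change of -0.29 (SE 0.057). RPL35 at the tunnel exit and RPL8 near the catalytic center were also called, with log2 changes of -0.28 and -0.24. RPL13A, which also silences inflammatory messages in monocytes (chr19:49487554-49492308), was at 730, 642 and 630 FPKM at 0 Gy and 620, 633 and 651 FPKM at 10 Gy. Its ranges overlapped, with a log2 change of -0.069 (SE 0.064, adjusted p = 0.43 from limma) that turned to 0.059 in TPM. RPS12 had 775, 697 and 701 FPKM at 0 Gy and 638, 636 and 665 FPKM at 10 Gy, which did not overlap, but it missed the threshold (log2 change -0.16, adjusted p = 0.055 from limma). RPS18 and RPL7A missed it as well, with log2 changes of -0.17 and -0.15, while RPS27 was called at -0.23. Besides RPL36A, RPL39L, RPL28, RPL13A and RPL19 were among the genes with the smallest changes, from -0.048 to -0.088.

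**Figure D5:**
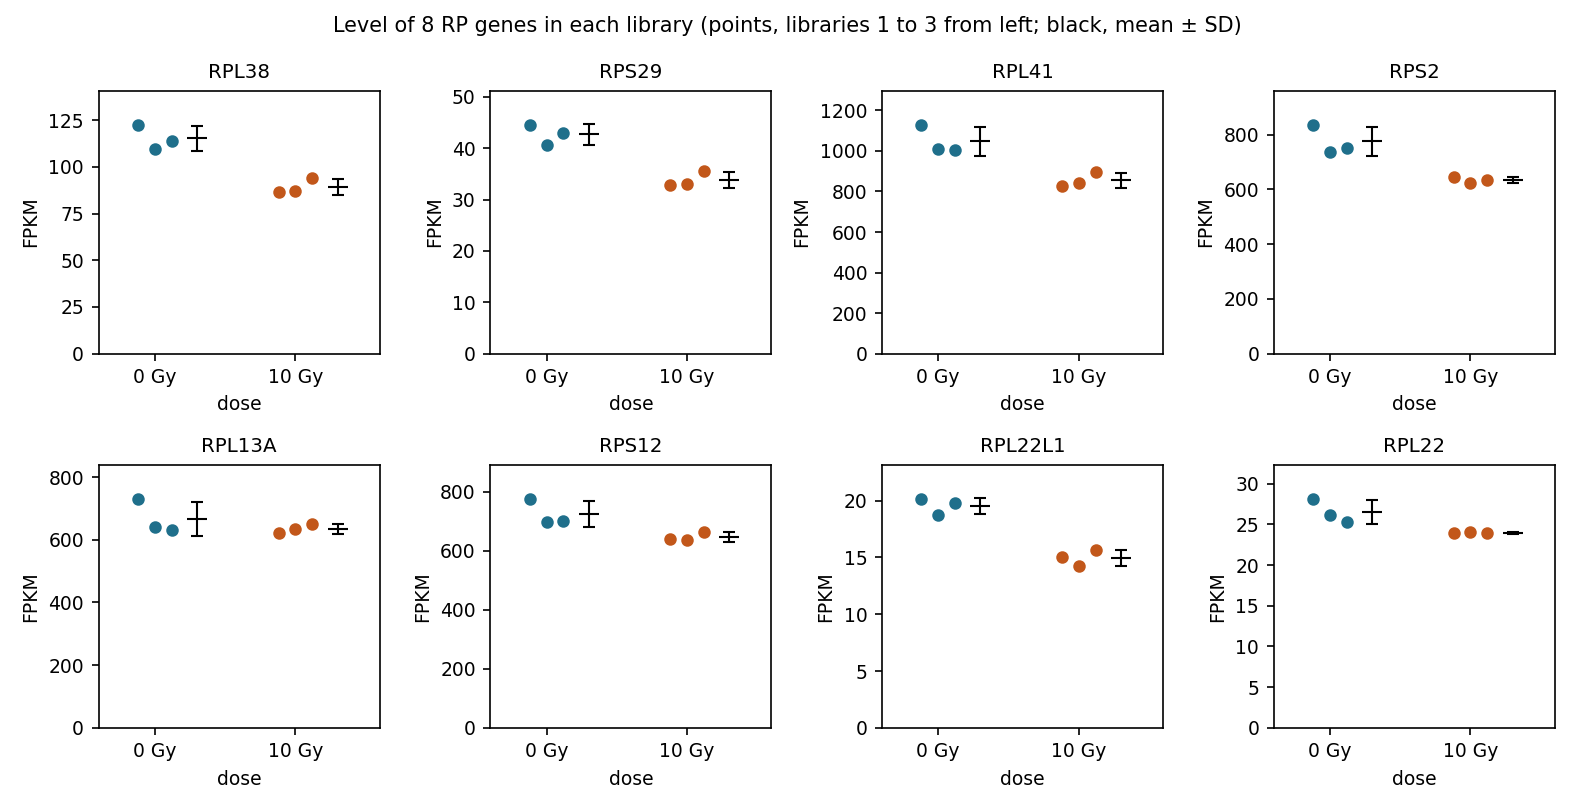
FPKM of RPL38, RPS29, RPL41, RPS2, RPL13A, RPS12, RPL22L1 and RPL22 (y, from 0) in 3 libraries at 0 Gy and 3 at 10 Gy (points, libraries 1 to 3 from left; black, mean ± SD, n = 3). The doses are apart for every gene shown except RPL13A, whose 10 Gy libraries at 620 to 651 FPKM overlap the 0 Gy libraries at 630 to 730 FPKM.

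The stalk of the large subunit, which recruits elongation factors, is built on RPLP0 with pairs of RPLP1 and RPLP2. RPLP2 was at 387, 348 and 327 FPKM at 0 Gy and 298, 291 and 303 FPKM at 10 Gy (log2 change -0.25, SE 0.063, adjusted p = 0.021 from limma). RPLP1 was at 258, 238 and 221 FPKM and at 207, 204 and 207 FPKM, and was also called (-0.21, SE 0.056). In TPM neither was called, with log2 changes of -0.12 for RPLP2 and -0.082 for RPLP1. RPLP0, often used as a reference gene in qPCR, was at 554, 502 and 476 FPKM and at 468, 461 and 472 FPKM. Its groups did not overlap, but its log2 change of -0.13 (SE 0.059) was not called (adjusted p = 0.14 from limma) and was 0.0025 in TPM. No difference between the stalk genes was tested.

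The RPs that can bind MDM2 differed in level at 0 Gy, from a mean of 29.4 FPKM for RPL26 to 237 FPKM for RPL5. RPL5, which enters the subunit with 5S RNA, was at 247, 229 and 234 FPKM at 0 Gy and 215, 214 and 221 FPKM at 10 Gy (log2 change -0.13, adjusted p = 0.046 from limma), and 0.0024 in TPM. RPL11, its partner in the 5S particle, was at 171, 152 and 154 FPKM and at 144, 137 and 140 FPKM (log2 change -0.18, adjusted p = 0.031 from limma). RPL23, RPL26 and RPS7 were called too, with log2 changes of -0.16, -0.17 and -0.18. All 5 were lower in every 10 Gy library than in any 0 Gy library, as were 72 of the 82 RP genes and 32.8% of all genes. In the fixed list of this axis, which adds RPS27, RPS27L, MDM2 and CDKN1A among others, 7 of 10 genes were called, all of them lower, where 23.7% of all genes were called lower. On the TPM scale none of the 10 was called lower and 1 was called higher, so the calls of RPL5, RPL11, RPL23, RPL26, RPS7, RPS27 and CDKN1A were lost. MDM2, a ubiquitin ligase, had a log2 change of -0.10 and was not called. CDKN1A, the cell cycle inhibitor p21, was at 31.6, 31.9 and 28.8 FPKM at 0 Gy and 22.7, 26.4 and 25.2 FPKM at 10 Gy (log2 change -0.30, adjusted p = 0.010 from limma).

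RPS6, the substrate of the S6 kinases, was at 300, 266 and 264 FPKM at 0 Gy and 240, 246 and 245 FPKM at 10 Gy (log2 change -0.18, adjusted p = 0.037 from limma). RPSA, which is also known as the laminin receptor, was at 314, 278 and 276 FPKM and at 266, 262 and 270 FPKM. Its groups did not overlap, its log2 change of -0.12 was not called (adjusted p = 0.13 from limma), and it was 0.0098 in TPM. RPS4X, which is encoded on the X chromosome, and RPS27A, which is made as a fusion with ubiquitin, had log2 changes of -0.18 and -0.14, and neither was called. Of the RPs with other names, FAU (a fusion with a ubiquitin-like protein) and RACK1 (a scaffold on the small subunit) were called lower, at -0.24 and -0.18.

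Some RP genes have paralogs that can take the parent's place in the ribosome, and the ratio within a library does not depend on scaling. RPL22L1 was at 0.717, 0.716 and 0.782 times the FPKM of RPL22 at 0 Gy and at 0.630, 0.593 and 0.655 times at 10 Gy. The ratio was lower in every 10 Gy library, by 0.24 on average on the log2 scale (two-sided exact permutation p = 0.1, which 3 libraries against 3 cannot undercut, and 0.25 after Benjamini-Hochberg adjustment over 5 ratios). RPL22 itself was called lower by less (log2 change -0.14, SE 0.042). RPL39L was at 0.0828, 0.0821 and 0.0788 times RPL39 at 0 Gy and 0.0948, 0.0846 and 0.0964 times at 10 Gy, higher in every 10 Gy library (log2 difference 0.18, exact permutation p = 0.1, adjusted 0.25). RPL39 was called lower at -0.23, and RPL39L was at 16.7, 14.7 and 14.02 FPKM at 0 Gy and 13.9, 13.7 and 16.1 FPKM at 10 Gy, which overlapped. For RPL26L1 over RPL26, RPS27L over RPS27 and RPL7L1 over RPL7 the ratios overlapped between doses (exact permutation p of 0.2, 0.5 and 0.8). The log2 changes of these ratios were -0.057, 0.064 and 0.013. RPL26L1, at 43.4, 39.0 and 39.7 FPKM at 0 Gy, was above its parent RPL26 in FPKM, but RPL26 was higher per kb of mRNA, at 126 against 65.6. RPS27L was at 4.91, 4.79 and 4.11 FPKM at 0 Gy and 4.15, 3.90 and 4.23 FPKM at 10 Gy, and was not called.

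Short RP genes had larger median falls than long ones, as had short genes in general. Of 35 RP genes with a coding sequence under 450 bases, 28 were called lower (80.0%), with a median log2 change of -0.20. Of 47 longer ones 28 were called lower (59.6%), with a median of -0.18. Among other protein-coding genes, 44.8% of 612 short genes and 24.5% of 9794 longer genes were called lower, with medians of -0.16 and -0.037. Across the 82 RP genes coding length and change correlated at a Spearman rho of 0.36, and across 10406 other protein-coding genes at 0.29. These are correlations across genes of the same 6 libraries, and genes are not independent replicates.

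Genes that share the TOP tract, act on RP production or serve another ribosome are given for comparison from fixed lists. Of 19 tested TOP genes outside the RPL and RPS families, mostly translation factors, 10 were called, all lower, with a median log2 change of -0.13. Over all genes 23.7% were called lower and 11.9% higher. On the TPM scale 3 of the 19 TOP genes were called lower and 2 higher, against 8.83% and 25.8% of all genes. The largest fall was that of NPM1, which chaperones ribosome assembly, at -0.27. EEF1A1, the most abundant elongation factor, was not called at -0.17 (adjusted p = 0.051 from limma). Of 18 regulators of TOP messages and RP transcription, 9 were called lower and 1 higher, against 23.7% and 11.9% of all genes. On the TPM scale 5 were called lower and 4 higher, against 8.83% and 25.8%, and the median log2 change went from -0.14 to -0.021. MYC, which drives RP transcription, was at 66.2, 63.1 and 64.5 FPKM at 0 Gy and 46.6, 44.2 and 46.0 FPKM at 10 Gy (log2 change -0.49, adjusted p = 0.00044 from limma). EIF4EBP1, the mTOR target that restrains cap-dependent translation, was at 99.5, 89.7 and 94.2 FPKM and at 64.8, 62.6 and 66.6 FPKM, the largest fall of that list at -0.54. Both were lower in TPM as well. TSC2, a brake on mTOR, was called higher at 0.23. Of 14 RP chaperones, importers and controls of unassembled RPs, 6 were called lower and 1 higher, with a median log2 change of -0.085. On the TPM scale 1 was called lower and 3 higher, near the shares of all genes given above, with a median of 0.033. The balance of calls over all genes turned in the same way. The gene called higher on the deposited scale was HUWE1, a ubiquitin ligase for unassembled RPs, which went from 26.6, 31.6 and 32.9 FPKM to 44.4, 44.0 and 41.2 FPKM (log2 change 0.50, adjusted p = 0.0033 from limma). Of 76 mitochondrial RP genes, 55 were called, all lower, with a median log2 change of -0.20, and MRPL12, MRPL17 and MRPL24 fell the most, with log2 changes of -0.48, -0.41 and -0.40. On the TPM scale 26 of them were called lower and 1 higher, with a median of -0.075. The shares called lower were 72.4% as deposited and 34.2% in TPM, against 23.7% and 8.83% of all genes. No list was tested against another.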

How the data were processed

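PolyA RNA-sequencing libraries of shSCR MDA-MB-231 cells were grouped by treatment in the sample labels. The authors deposited FPKM values. The submitters' processing notes name HISAT2 and GRCh38, and the counting program is not given in the sources used here. Deposited gene lengths equal the union of GENCODE 29 exons. FPKM times length times the implied depth gave whole reads (tolerance 0.02) for 100% of values above 0. These recovered reads served for depth, shares and the library factor only, and no count test was run.

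For tests, log2(FPKM + 1) values of the 12128 genes averaging 1 FPKM or more were fitted with limma 3.58.1 (R 4.3.3, eBayes with a trend), and genes were called at a Benjamini-Hochberg adjusted p under 0.05. Fold changes on this scale understate those of low genes. Sums and medians over members have no test. Ratios of paralogs were compared by two-sided exact permutation over libraries. On simulated data the fit was checked for known changes. The members and lists were chosen with earlier results of these data known. Genes named are the 5 most abundant of each subunit, the 5 largest called falls and rises without overlap, paralogs with parents, stalk genes, MDM2 binders, RPS6, RPSA, RPS4X, RPS27A, RPL41, members below 1 FPKM, and from the lists called genes at 1.3-fold or more. Others (RPS10, RPL36A, RPL9, RPS24, RPL15, RPS3, RPL37, RPL28, RPL19, RPL36, RPS14, RPL35A, RPL21, NPM1, EEF1A1, TSC2, MDM2 and CDKN1A) were named after their values were seen. Some named items are not reported here. Sequences came from RefSeq promoter windows, which 67 members matched and 17 did not. The expressed protein-coding comparison and the tract at the first base were chosen after the data were seen. Replicate numbers did not pair the libraries (same-number correlations -0.040, -0.035 and -0.101).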

Additional observations from a re-analysis of the deposited data

How the results depend on the processing

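No RP gene was called higher under any alternative. The log2 change of the subunit ratio, 0.011, cannot change with scaling, since a factor on a library cancels in its ratio. With a library left out this change ranged from 0.0033 to 0.023, with doses that did not overlap when library 2 at 0 Gy was missing. Large and small subunit genes called lower numbered 8 and 3 in TPM, 14 and 3 with upper-quartile scaling, 7 and 3 scaled to genes other than RP genes, and 11 and 3 without a filter on low genes, where 31650 genes share the adjustment. They were 18 and 4 with the library factor removed and 14 and 3 scaled to nuclear genes other than RP genes, alternatives chosen after the data were seen. Of all 12128 genes, 1071, 1444 and 1103 were called lower in TPM, with the upper quartile and scaled to other genes. Without the library factor it was 1651, scaled to other nuclear genes 1247, and without the filter 1815 of 31650. Under these scalings the small subunit's share of lower calls was near or below that of all genes, and the large subunit's was above it. The other alternatives stayed within 1.5 times of 37 and 19, except as follows. With each library left out in turn the counts ranged from 13 to 34 and from 3 to 20, with fewest calls when a 10 Gy library was missing, and 9 small subunit genes without library 3 at 10 Gy. Lower calls over all genes then ranged from 1808 to 2630. The replicate block gave 26 and 6, with 2366 of all genes called lower. Since replicate numbers did not pair the libraries, the block's lost calls are not a weaker effect. The median log2 changes of large and small subunit genes and the change of the sum were -0.058, -0.053 and -0.062 in TPM, -0.094, -0.086 and -0.098 with the upper quartile, -0.063, -0.057 and -0.066 scaled to other genes, -0.11, -0.10 and -0.12 without the library factor, and -0.075, -0.069 and -0.078 scaled to other nuclear genes. Scaling shifts all genes of a library alike. RPL13A and RPL39L turned to 0.059 and 0.072 in TPM, 0.022 and 0.038 with the upper quartile, 0.054 and 0.068 scaled to other genes, 0.0054 and 0.022 without the library factor, and 0.042 and 0.057 scaled to other nuclear genes. In TPM RPLP0, RPL5 and RPSA turned to 0.0025, 0.0024 and 0.0098, and RPSA to 0.0052 scaled to other genes. With a library left out RPL39L ranged from -0.12 to 0.020 and the log2 change of the RPL7L1 to RPL7 ratio from -0.019 to 0.050, and the cause was not tested. Leaving out 1 library leaves 2 in its group, which are assumed to vary like the other group. Depth limits most the members with few reads, RPL17, RPL36A, RPS10, RPL3L and RPL10L.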

Other observations

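Processed pseudogenes of RP genes were listed at high levels per length. RPS28P7 was at 748, 661 and 703 FPKM at 0 Gy and 568, 556 and 586 FPKM at 10 Gy, above RPS28 itself at a mean of 191 FPKM at 0 Gy. RPL9P9 was at 510, 470 and 454 FPKM at 0 Gy and 429, 443 and 449 FPKM at 10 Gy, and RPL39P3 at 347, 318 and 330 FPKM and at 302, 342 and 349 FPKM. Reads of such copies cannot be told from those of the parent by these values.

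Introns of RP genes house small nucleolar RNAs, and 60 of these were annotated inside 28 members. In these polyA libraries the highest of them, SNORA33 inside RPS12, had 206 reads over the 6 libraries. EEF1G, a translation elongation factor with a TOP message, was listed at 0 in all 6 libraries.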
